A study of Homo sapiens with 8 samples.

Results

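Ago2 peaks in 3' UTRs that hold many of them were described here in 293S cells, which descend from HEK293, a line of human embryonic kidney. The members, chosen by their number of peaks, were all 3' UTR peaks of transcripts with 6 or more such peaks in the authors' deposited table. They were 5820 peaks in 538 3' UTRs of 537 genes, CELF1 having entries for 2 transcripts. These made up 44.9% of the 12955 listed 3' UTR peaks and 12.3% of the 4362 3' UTRs with a peak, in a table of 22506 peaks of all regions. The members had a median of 8 peaks and up to 63. That number and the reads that go with it are therefore a description. The 140 3' UTRs with exactly 6 peaks held a median of 103 reads (56 to 539), and the 178 with exactly 5, just outside, held 85.5 (42 to 645).

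The study compared untreated cells with cells given emetine at 20 µg/mL for 60 minutes; this plant alkaloid stops ribosomes during elongation. There was 1 culture per treatment. It gave 1 aliquot for RNA-seq and 3 aliquots for Ago2 crosslinking and immunoprecipitation (CLIP), each with a different antibody. The p-values below therefore measure the spread between aliquots and antibodies, not between cultures. In such bulk libraries, fewer cells with a transcript and less of it per cell cannot be told apart. The labels name no transgene and no other agent for either group, and all samples come from the same cell line.

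Argonaute proteins such as Ago2 carry a microRNA and are led by it to target transcripts, most often in the 3' UTR. Pairing of the microRNA's seed, bases 2 to 8, with the transcript is the main determinant of a target. Bound Argonaute recruits GW182 proteins (TNRC6A to C), which bring deadenylases and lower translation and stability of the target. Long 3' UTRs can hold several target sites, and sites that lie close together can act jointly.

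The seeds used below to describe the member 3' UTRs belong to microRNA families that are widely expressed in human cells. They are shown because their complements were counted in the members. Capitals mark the seed in these mature human sequences from RefSeq (GRCh38.p14), written 5′ to 3′. The miR-17 and miR-15/16 families each appear with 2 members, which share the seed and differ elsewhere.
hsa-let-7a-5p: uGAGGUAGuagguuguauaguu
hsa-miR-17-5p: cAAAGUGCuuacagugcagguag
hsa-miR-20a-5p: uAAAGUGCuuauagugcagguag
hsa-miR-16-5p: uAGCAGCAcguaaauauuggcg
hsa-miR-15a-5p: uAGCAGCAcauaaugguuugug
hsa-miR-19b-3p: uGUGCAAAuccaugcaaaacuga
hsa-miR-92a-3p: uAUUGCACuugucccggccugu

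Matches to these seeds lay in the 3' UTRs with the most peaks. The next sequences are 1 match each from 5 of them, 30 bases of the transcript strand ending 1 base past the match, with the 7-base match in capitals. They come from the GRCh38 transcript paired by its RefSeq identifier. The peaks are on hg19, so no peak was placed on these letters, and each match is a description and not a site found bound.
ANKRD52, miR-17 match, chr12:56243058-56243087, minus strand: agaaaaagtctaaacatttaggGCACTTTa
ACVR2B, miR-15/16 match, chr3:38484589-38484618, plus strand: tctagtcagtgaatgttcctaaTGCTGCTg
NUCKS1, miR-15/16 match, chr1:205717097-205717126, minus strand: aagaagtacatccctgtgatccTGCTGCTt
BTG2, miR-15/16 match, chr1:203308171-203308200, plus strand: cacaaaacctttgctttgctagTGCTGCTt
MIDN, let-7 match, chr19:1257462-1257491, plus strand: gactcttcatgggctttgcttcCTACCTCc

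Of the 538 members, 520 were paired with a GRCh38 3' UTR, and 427 of those were at least as long as the stretch their peaks covered and were used for sequence features. These member 3' UTRs had a median length of 2971 nt, against 2049.5 nt for 3' UTRs with 2 to 5 peaks and 1299 nt for those with 1 peak. Density was higher as well, with a median of 3.19 peaks per kb in the members, 1.32 in 3' UTRs with 2 to 5 peaks and 0.770 in those with 1. Both follow in part from the rule, which counts peaks. The length filter was applied to all groups and asks for a longer 3' UTR where the peaks cover more. After pairing and this filter, 427 of 538 members, 1534 of 1778 3' UTRs with 2 to 5 peaks and 1933 of 2046 with 1 remained. The difference in length, and in matches per 3' UTR below, therefore follows in part from the filter. MIDN, which carries proteins to the proteasome, had the highest density at 20.9 peaks per kb over 1868 nt. GC content was 41.2% in the members, 39.8% with 2 to 5 peaks and 41.4% with 1.

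Seed matches of 7 bases of 12 microRNA families were counted on the transcript strand. The median member held 5 matches, against 3 in 3' UTRs with 2 to 5 peaks and 2 in those with 1. Pooled over length, the members held 1.51 matches per kb and the other groups 1.41 and 1.26. The let-7 match CTACCTC was in 20.4% of members and 11.5% of other 3' UTRs, or 0.0784 and 0.0586 matches per kb. For the miR-17 match GCACTTT the shares were 45.7% and 29.2%, and the densities 0.20 and 0.19 per kb. The miR-15/16 match TGCTGCT was in 49.6% and 28.9%, and the miR-19 match TTTGCAC in 37.9% and 20.6%. Shares for the other families (miR-25/92 GTGCAAT, miR-30 TGTTTAC, miR-130 TTGCACT, miR-103 ATGCTGC, miR-10 ACAGGGT, miR-27 ACTGTGA, miR-101 GTACTGT and miR-148 TGCACTG) ran from 22.2% against 16% for miR-10 to 38.4% against 23.2% for miR-30. A share with a match also depends on length, and the members were longer. Per kb, miR-10 matches were fewer in members than in other 3' UTRs (0.0771 and 0.0846), as were miR-27 matches (0.109 and 0.112). The other families had more matches per kb in members. The matches of miR-19, miR-130, miR-148 and miR-17 can overlap each other, as can those of miR-15/16 and miR-103, and such bases count for each. Across the 427 members, the number of peaks had a Spearman correlation of 0.27 with length, 0.28 with seed matches, and 0.14 between peaks and matches per kb. Across all 538 it was 0.80 with the summed reads and 0.17 with RNA reads. These are correlations across 3' UTRs of the same libraries.

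The deposited values gave back whole reads for each of the 6 CLIP libraries at all 5820 member peaks, and at 22496 of all 22506 peaks. In member peaks the emetine libraries held 6776, 27159 and 24743 reads, and the control libraries 6840, 32392 and 29893. The numbers 1 to 3 given to the libraries follow their scaling only, and their antibodies were not assigned. Library 1 of each treatment is the shallow one, where 1 read counts as 8.9 (emetine) or 8.0 (control) normalised reads, against 2.43 to 3.00 in the others. It also differed in composition. Of its reads in listed peaks, 12090 of 40705 (emetine) and 12329 of 39591 (control) lay in 3' UTR peaks. The share was larger in each other library, from 50339 of 96907 (emetine library 3) to 72482 of 117571 (control library 2). Depth and this difference were not told apart. Of 7 genes listed as markers of 293S cells, 2 had a peak (NEFL and VIM), and 0 of 10 marker genes of other cell types did.

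Member peaks were supported by few libraries. A member peak had a median of 17 reads over the 6 CLIP libraries (11 to 537), and other 3' UTR peaks had 15. All the reads came from 1 library at 809 member peaks (13.9%), against 32.8% of other 3' UTR peaks. Reads in all 6 libraries were found at 323 member peaks (5.55%), against 2.99%. A single library gave at least 80% of the reads at 2109 member peaks (36.2%), against 56.9%. Of the 809 peaks seen in 1 library, 37.2% were from control library 2, 23.0% from control library 3, 19.9% and 19.7% from emetine libraries 2 and 3, 0.247% from control library 1 and 0% from emetine library 1. No emetine read was listed at 812 member peaks (14.0%) and no control read at 578 (9.93%).

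**Figure D1:**
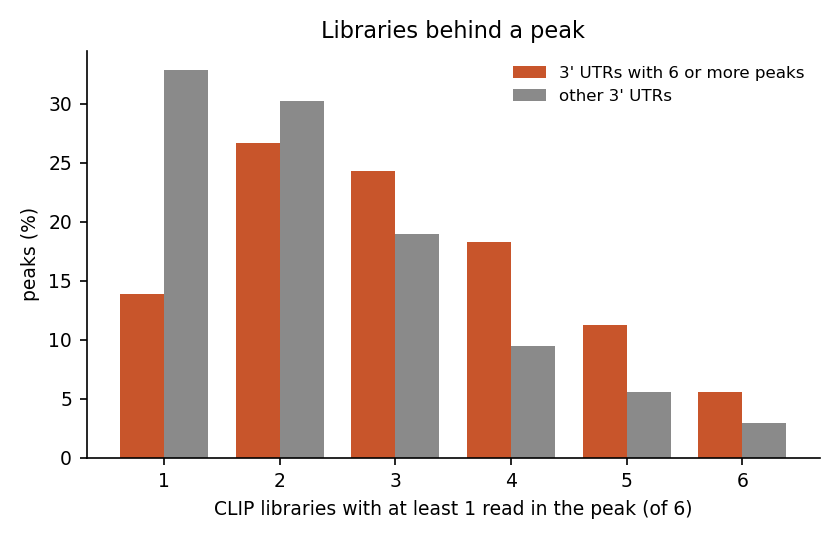
Share of 3' UTR peaks (y, percent) by the number of CLIP libraries with at least 1 read in the peak (x, of 6), for 3' UTRs with 6 or more peaks and for all other 3' UTRs. Peaks seen in 1 library are 13.9% of the first group and 32.8% of the second, and peaks seen in all 6 are 5.55% and 2.99%.

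The peaks stood close together. Among 5282 neighbouring pairs, the gap from the end of one peak to the start of the next had a median of 82 nt, with quartiles of 6 and 276 nt. Overlapping or touching neighbours made up 1032 pairs (19.5%), and 281 pairs (5.32%) were over 1000 nt apart. In 3' UTRs with 2 to 5 peaks the median gap was 218 nt and 17% of pairs were over 1000 nt apart. Within the members the gap had a median of 125 nt in the 395 with 6 to 11 peaks and 54 nt in the 143 with 12 or more. Part of this order follows from the count itself, since more peaks in a stretch leave less room. Merging overlapping and touching peaks left 4788 separate regions, with a median gap of 132 nt.

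Peaks were 31 nt wide at the median (quartiles 25 and 42, range 2 to 116), against 28 nt in other 3' UTRs. The median member's peaks covered 2243 nt from first to last. PTMS, the gene of the small acidic protein parathymosin, had the shortest stretch, 6 peaks in 249 nt. QKI, an RNA-binding regulator of splicing and myelination, had the longest, 9 peaks over 14025 nt, with a gap of 5892 nt. These extremes were chosen after their values were seen.

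Tightly packed members included CNBP (a zinc-knuckle nucleic acid binding protein), whose 8 peaks had a median gap of -10 nt, a negative gap being an overlap. XYLT2, a xylosyltransferase of proteoglycan synthesis, also had a median gap of -10 nt over 6 peaks, and ITPK1, an inositol phosphate kinase, -8 nt over 6 peaks. Both XYLT2 and ITPK1 had 3 separate regions and CNBP 4. At the other end stood ZNF704, a zinc finger gene, with a median gap of 1247.5 nt over 7 peaks, CNOT6L, a deadenylase of the CCR4-NOT complex, with 1193.5 nt over 7, and TEAD1, the partner of YAP in Hippo signalling, with 1077 nt over 6. In ZNF704 and CNOT6L no peaks overlapped.

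The 12 members with the most peaks differed in how the peaks were packed. UHMK1, a kinase with a U2AF homology motif, had 63 peaks over 6795 nt, with a median gap of 47.5 nt. ACVR2B, an activin receptor, had 62 peaks over 9525 nt and a median gap of 83 nt. In ANKRD52, a regulatory subunit of protein phosphatase 6, 62 peaks lay within 5316 nt. NUCKS1, a nuclear kinase substrate, held 59 peaks within 5100 nt, in 37 separate regions. MIDN had 39 peaks in 1829 nt with a median gap of -1.5 nt, and BTG2, an antiproliferative factor that binds deadenylases, had 38 in 2151 nt with a median gap of 1 nt. The others were CCND2 (cyclin D2, 55 peaks), IGF2BP1 (an oncofetal RNA-binding protein, 53), SOX11 (a transcription factor, 47), NACC2 (a BTB domain repressor, 41), NPTX1 (neuronal pentraxin, 36) and NUFIP2 (an RNA-binding partner of FMRP, 36).

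**Figure D2:**
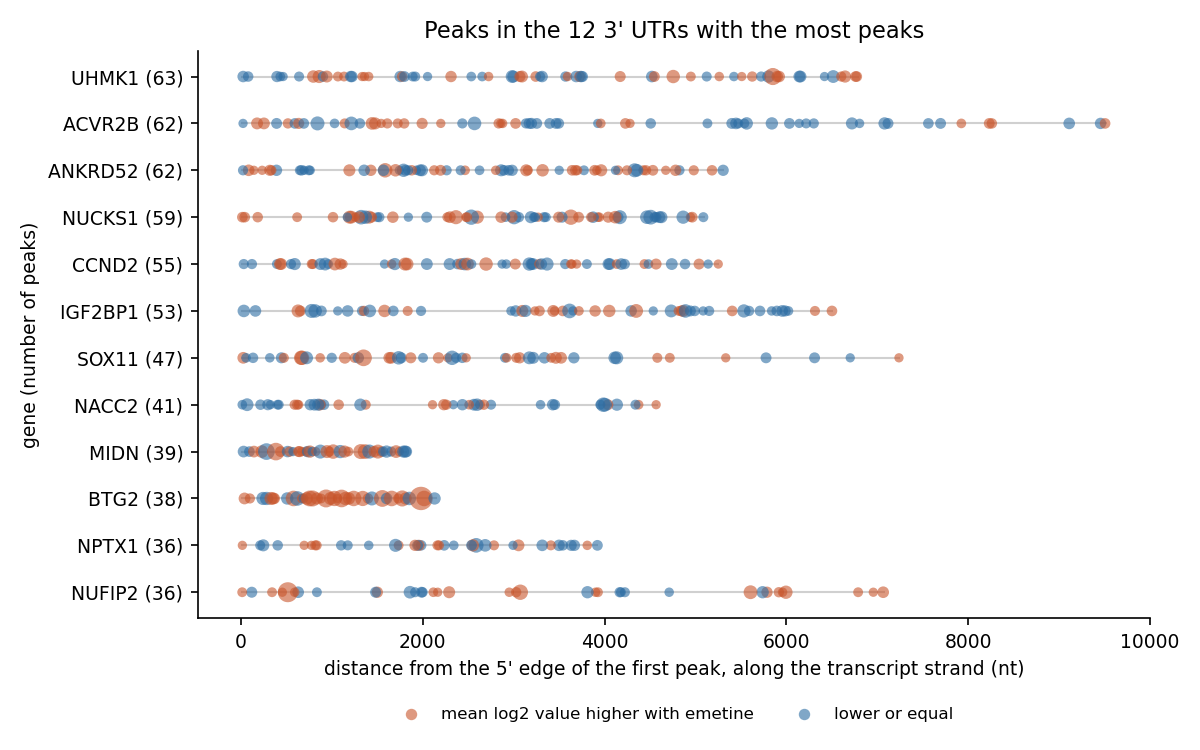
Peaks of the 12 3' UTRs with the most peaks (rows, number of peaks in brackets) by distance from the 5′ edge of the first peak along the transcript strand (x, nt). Each disc is 1 peak, larger with more reads, red where the mean log2 value was higher with emetine and blue where it was not; red and blue alternate along most rows, while 29 of the 38 BTG2 discs are red.

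The first comparison asked whether single member peaks differed with emetine. In limma, fitted to log2(normalised reads + 1) of all 22496 peaks with recovered reads, 0 of 5820 member peaks had an adjusted p under 0.05, and 0% of all peaks did; the smallest adjusted p of a member was 0.784. Before adjustment, 71 member peaks (1.22%) had a p under 0.05, against 1.07% of all peaks. Of these, 47 were higher with emetine (0.769% of all peaks were) and 24 lower (0.298% of all peaks were). The 3 libraries of one treatment lay above all 3 of the other at 145 member peaks with emetine higher (2.49%, against 2.55% of all peaks) and at 132 with emetine lower (2.27%, against 1.43%). The median log2 change was -0.09 over the members, 0.01 over all peaks and -0.23 over the other 3' UTR peaks. The median standard error of a member peak's log2 change was 2.05. That error includes the spread between the 3 antibodies of a treatment and the few reads of a peak, and their parts in it were not told apart.

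The peak with the most reads lay in WEE1, the kinase that holds CDK1 inactive, at chr11:9610595-9610665 (hg19, plus strand). Its reads numbered 22, 162 and 120 in the emetine libraries and between 17 and 110 in the control libraries. Normalised, the treatments overlapped, and the ratio of read totals scaled for depth was 1.45 (exact binomial 95% interval 1.22 to 1.73, counting error only). In limma the log2 change was 0.52 with a standard error of 1.00 and an adjusted p of 0.915.

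Among the members with the smallest p values, 4 peaks had more reads with emetine and none listed in the control. A TXNIP peak at chr1:145441897-145441946 (hg19) held 5, 15 and 19 reads with emetine and 0 in each control library, at least 14.4-fold higher when the control is set at 3 reads over its libraries. TXNIP is an inhibitor of thioredoxin and of glucose uptake. An NHLRC3 peak at chr13:39622284-39622315 (hg19) held 2, 35 and 19 reads against 0 in each control library, at least 20.7-fold. A ZMAT3 peak held 3, 35 and 4 reads, at least 15.6-fold, and a CBX5 peak 2, 18 and 11, at least 11.5-fold. ZMAT3 is a p53 target that binds RNA, and CBX5 is heterochromatin protein HP1 alpha. None of the 4 passed, each with an adjusted p of 0.784 in limma.

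In the other direction, an EIF4EBP2 peak at chr10:72185407-72185434 (hg19) held 0 reads in each emetine library and 3, 36 and 8 in the control, at least 14.1-fold lower with emetine. EIF4EBP2 represses cap-dependent translation by binding eIF4E. The ZCCHC3 peak with the smallest p held 1, 1 and 0 reads with emetine and 5, 38 and 28 without. A peak of SPCS3, a subunit of the signal peptidase, held 0, 0 and 7 reads with emetine and 4, 23 and 38 without. A FAM84B peak held 0 in each emetine library and 5, 11 and 7 in the control, at least 6.90-fold lower. The treatments did not overlap at any of these 4 peaks, and the adjusted p was 0.784 in limma for each. The peaks were chosen for their small p, which favours such separation.

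Summing reads over the peaks of a 3' UTR, with identical overlapping peaks counted once, gave 56 to 2461 reads per member, with a median of 166. The median standard error of the log2 change was 1.13, against 2.09 in 3' UTRs with fewer peaks. In limma over 4361 3' UTRs, 0 of 538 members passed at an adjusted p under 0.05, and 0% of all did. The smallest adjusted p was 0.223, for TXNIP. Before adjustment, 24 members (4.46%) had a p under 0.05, against 1.79% of all 3' UTRs. Of these, 8 were higher with emetine (0.688% of all 3' UTRs were) and 16 lower (1.1% of all were). The treatments did not overlap in 12 members with emetine higher (2.23%, against 2.22% of all) and in 19 with emetine lower (3.53%, against 2.66%). Altogether 257 members were above 0 and 281 below, with a median log2 change of -0.05, against -0.17 over all 3' UTRs. Leaving out 1 library moved the members' median from -0.45 (without control library 1) to 0.25 (without emetine library 1).

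The TXNIP 3' UTR, with 26 peaks, held 42, 334 and 376 reads with emetine, against 9, 155 and 116 without. The shallow emetine library lay below control library 2 after normalisation, so the treatments overlapped. The ratio of totals was 2.98 (2.60 to 3.44), and 25 of its 26 peaks were higher with emetine. The limma log2 change was 1.82 with a standard error of 0.45. RNA reads of TXNIP were 573 with emetine and 54 without, where 1 RNA read counted as 2.51 and 6.37 normalised reads. The log2 RNA ratio after this scaling was 2.06, from 1 library per treatment. Without emetine library 1 TXNIP passed, at a log2 change of 2.31 and an adjusted p of 0.00250 in limma, while without control library 1 the change was 1.06 and the adjusted p 0.770. Over the other settings without a block the adjusted p ran from 0.0824 to 0.986.

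The antibodies pair the libraries across treatments, but the recovered libraries cannot be assigned to them, so limma was also fitted with a block for each of the 6 possible pairings. In the 2 pairings that put the shallow libraries together, 2 and 3 members passed (0.0459% and 0.0688% of all 3' UTRs did), all higher with emetine. They were TXNIP and WEE1, joined in 1 of these pairings by ZNF367, a zinc finger gene. In the other 4 pairings 0 members passed. The adjusted p in limma ran over the 6 pairings from 1.02e-05 to 0.879 for TXNIP, from 0.00460 to 0.879 for WEE1 and from 0.0273 to 0.879 for ZNF367. TXNIP was higher with emetine in every pair in 4 of the 6 pairings, and WEE1 and ZNF367 in 2. Which pairing is the right one was not determined.

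Several other members had more normalised reads with emetine, though none passed without the block. BTG2, with the most reads of any member, held 127, 615 and 612 reads with emetine and 94, 586 and 427 without, a ratio of 1.36 (1.25 to 1.47), with a log2 RNA ratio of 0.45. WEE1 held 95, 556 and 489 against 53, 312 and 473, a ratio of 1.51 (1.38 to 1.65). Its log2 RNA ratio was 0.26, and 15 of its 16 peaks were above 0. MCL1, a short-lived survival factor of the BCL2 family, held 42, 203 and 170 against 25, 87 and 129. In MCL1 the treatments did not overlap, and the ratio was 1.91 (1.63 to 2.25). ZNF367, chosen after its values were seen, held 25, 231 and 185 against 2, 90 and 123, with a log2 RNA ratio of 1.00. JUN, a subunit of AP-1 also chosen so, held 14, 100 and 98 against 5, 12 and 59, with 10 of 10 peaks above 0 and a log2 RNA ratio of 1.28. The adjusted p in limma, without a block, was 0.803 for each of these 5.

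Some of the members with the most peaks had fewer normalised reads with emetine. ACVR2B held 86, 227 and 159 reads with emetine and 109, 344 and 385 without, a ratio of 0.626 (0.558 to 0.701), and the normalised values of the treatments did not overlap. IGF2BP1 held 90, 222 and 141 against 90, 396 and 393, a ratio of 0.573 (0.510 to 0.642), with 1 library of each treatment overlapping. NPTX1 held 50, 95 and 102 against 55, 155 and 270, a ratio of 0.572 (0.488 to 0.668). In UHMK1 the numbers were 34, 313 and 273 against 37, 394 and 323, and the ratio of 0.914 had an interval that included 1 (0.820 to 1.02). Each of these intervals covers counting error in pooled reads; in limma the adjusted p was 0.803 for ACVR2B, IGF2BP1 and NPTX1 and 0.977 for UHMK1.

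Among the 459 members with at least 100 reads, the 6 lowest ratios of totals came in members with 6 to 8 peaks and 108 to 137 reads. Members with fewer reads reached as low, such as C2CD2 (97 reads, ratio 0.0355) and TMEM184B (84 reads, 0.0412), both named after their values were seen. SLC36A1, a lysosomal amino acid transporter, held 0 reads in each emetine library and 1, 69 and 67 in the control, at least 41.1-fold lower. With no emetine read, all 8 of its peaks could only lie below 0. NRAS, the Ras GTPase, held 1, 2 and 4 against 7, 37 and 57, a ratio of 0.0770 (0.0302 to 0.165). LMNB2, lamin B2 of the nuclear envelope, held 6, 1 and 0 against 8, 59 and 37, a ratio of 0.0748 (0.0293 to 0.160). The treatments did not overlap in these 3 members, nor in FAM84B, EIF1AD and NEK7 (a kinase of mitosis and the inflammasome), whose ratios were 0.0590, 0.0635 and 0.0641. All 6 were chosen for their low ratio, which favours such separation. RNA of these 6 genes differed by log2 ratios between -0.24 (LMNB2) and 0.07 (FAM84B). In limma the adjusted p was 0.803 for all 6; with limma-voom SLC36A1 passed, at 0.0280.

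Among the same 459 members, the highest ratios of totals lay closer to 1 than the lowest did. HOXB3, a homeobox transcription factor, held 6, 52 and 45 reads with emetine and 4, 3 and 11 without, a ratio of 6.36 (3.83 to 11.2), with 7 of 7 peaks above 0 and no overlap. HCFC2, a relative of host cell factor, held 5, 170 and 27 against 0, 37 and 17, a ratio of 4.16 (3.06 to 5.72), and 1 peak gave 51.6% of its reads. ID4, an inhibitor of basic helix-loop-helix factors, held 2, 2 and 82 against 1, 17 and 7, so that 1 library made its ratio of 3.82; without emetine library 3 its log2 change went from 0.64 to -0.80. NCOA3 (a nuclear receptor coactivator), ZNF680 and UBE2K (a ubiquitin-conjugating enzyme) had ratios of 3.66, 3.63 and 3.55, with overlapping treatments in each.

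**Figure D3:**
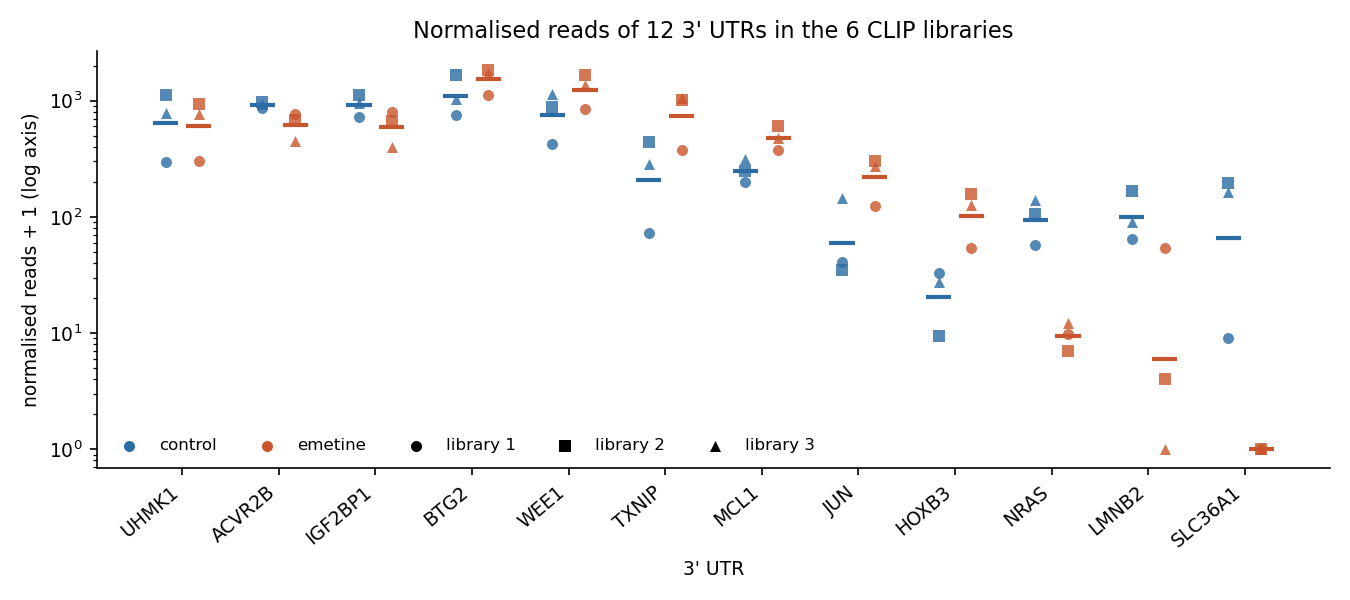
Normalised reads plus 1 (y, log axis) of 12 3' UTRs (x) in the 3 control and 3 emetine CLIP libraries; symbols mark libraries 1 to 3 and bars the mean of the logarithms. The treatments do not overlap for ACVR2B, MCL1, HOXB3, NRAS, LMNB2 and SLC36A1, and the emetine points of SLC36A1 all lie at 1 because 0 reads were listed.

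The second question was how far the peaks of one 3' UTR agreed. Of the variance of peak log2 changes over the 538 members, a share of 0.061 lay between 3' UTRs, and the SD within a 3' UTR was 1.68. With the deposited ratio, which is relative to RNA, the share was 0.058. Keeping 1 peak per group of overlapping peaks lowered it to 0.046. In 3' UTRs with 2 to 5 peaks the shares were 0.082 over all peaks and 0.044 over separate ones. The median member had 66.7% of its peaks in its more frequent direction, and 17 members (3.16%) had all their peaks in 1 direction.

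Among the members' separate peaks with at least 20 reads the share between 3' UTRs was 0.098 (1759 peaks), and with at least 40 reads it was 0.218 (318 peaks in 93 3' UTRs). Without TXNIP and ZNF367 the last value was 0.136. The SD within a 3' UTR was 1.76 over all separate peaks, 1.77 with at least 20 reads and 1.5 with at least 40. In 3' UTRs with 2 to 5 peaks the share went the other way, from 0.044 over separate peaks to 0.024 with at least 20 reads. A limma test of whether 1 peak changed against the other peaks of its 3' UTR (diffSplice, 2144 3' UTRs with at least 2 separate peaks) passed 0 of 538 members, and 0% of all; the smallest adjusted p was 0.944, and 10 members (1.86%) had an unadjusted p under 0.05, against 2.66% of all. A p that misses the threshold does not show that peaks of a 3' UTR changed alike.

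Neighbouring peaks had log2 changes of the same sign most often where they overlapped. Among overlapping or touching neighbours 803 of 1032 pairs (77.8%) had changes of the same sign, with a median difference of 0.55 in log2 change. At gaps of 1 to 50 nt the share was 52.3%, and the median difference 1.55. It was 53.3% at gaps above 50 and up to 250 nt, 51.7% up to 1000 nt and 45.2% beyond 1000 nt, with median differences of 1.71, 1.80 and 2.03. Overlapping peaks can count the same reads: 236 neighbouring pairs had identical reads in all 6 libraries, and 234 of these overlapped or touched. Where both peaks had at least 20 reads, the shares were 76.7% for overlapping or touching pairs and 56.4% at 1 to 50 nt.

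**Figure D4:**
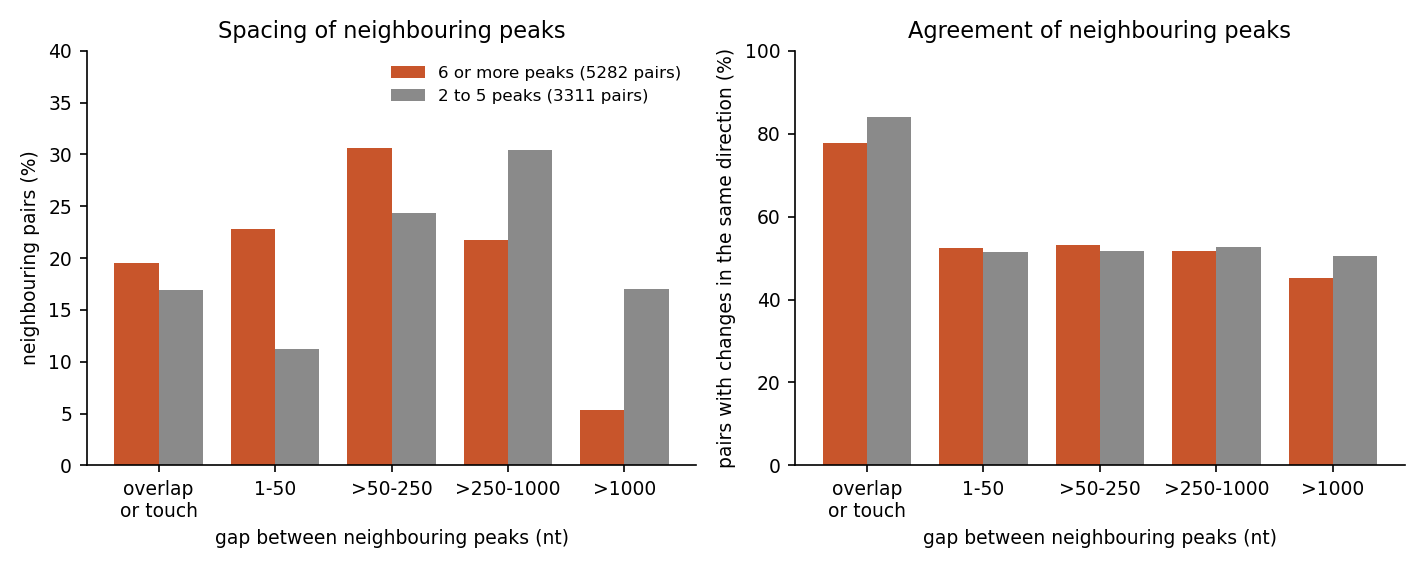
Left, share of neighbouring peak pairs (y, percent) by the gap between them (x, nt) in 3' UTRs with 6 or more peaks (5282 pairs) and with 2 to 5 peaks (3311 pairs). Right, share of pairs whose log2 changes had the same sign (y, percent) in the same gap classes; it is 77.8% for overlapping or touching pairs of the first group and between 45.2% and 53.3% at larger gaps.

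Alternate peaks were compared next. Separate peaks of each member were numbered from the 5′ end, and the log2 ratio of summed normalised reads was taken for odd and for even ones. The 2 ratios had a Pearson correlation of 0.06 across the 538 members and 0.23 across the 104 members with at least 300 reads. Their signs agreed in 289 members (53.7%), and in 59 of the 104. As all peaks share the same 6 libraries, these correlations are descriptions.

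**Figure D5:**
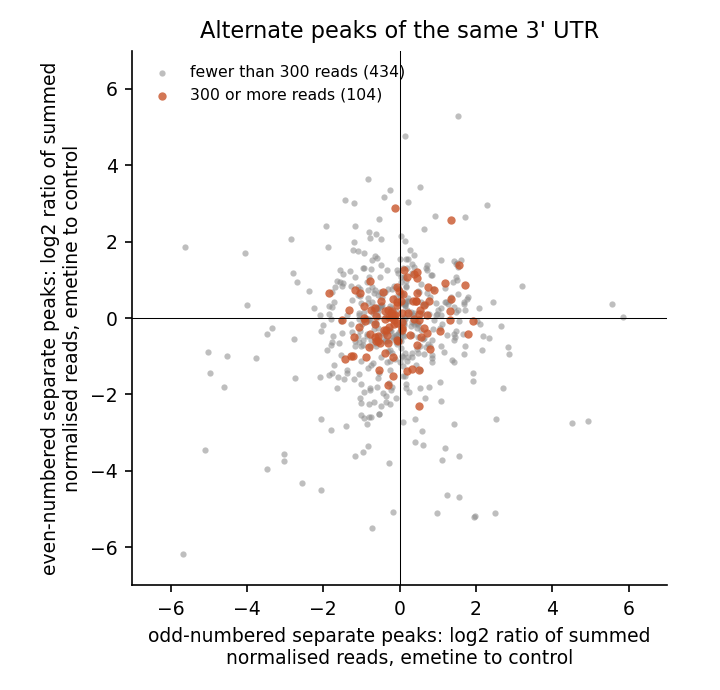
Log2 ratio of summed normalised reads, emetine to control, of the odd-numbered separate peaks (x) and the even-numbered ones (y) of each 3' UTR; each point is 1 of 538 members, red for the 104 with at least 300 reads. The cloud has no clear slope, with a correlation of 0.06 over all points and 0.23 over the red ones.

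In some members all separate peaks had log2 changes of 1 sign. TXNIP was above 0 at 17 of 17, WEE1 at 10 of 10, JUN at 7 of 7 and HOXB3 at 6 of 6. LMNB2 and SLC36A1 were below 0 at 8 of 8, and FAM84B and NRAS at 7 of 7. There were 23 such members (4.28%) in all. These genes were counted after the values were seen. SLC36A1 held no emetine read, so its peaks could only lie below 0. LMNB2, FAM84B, NRAS and HOXB3 were named above for their extreme ratios. Peaks of a member share the same 6 libraries, so their signs are not separate observations.

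The spread within a member is best seen in those with the smallest and largest SD of peak changes among the 459 with at least 100 reads. EEF2, translation elongation factor 2, had the smallest, an SD of 0.50 over 7 peaks with log2 changes from 0.86 to 2.08. Its summed reads were 21, 11 and 59 with emetine and 12, 0 and 29 without, and only 4 of its peaks were separate. With 0 reads in control library 2, its log2 change went from 2.42 (standard error 1.33) to 0.29 when that library was left out. DUSP7, a MAP kinase phosphatase, and TM9SF3, a transmembrane protein of the secretory pathway, both had an SD of 0.57. DUSP7 ranged from -0.19 to 1.34 over 8 peaks, and TM9SF3 from -2.30 to -0.88 over 6.

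CLIP4 had the largest SD, 2.71 over 6 separate peaks. The first 3 had log2 changes of 2.83, 3.31 and 1.90, the next held 0 emetine reads and 0, 18 and 7 control reads, and the last held reads in control library 2 alone. FBXO28, an F-box protein of ubiquitin ligases, had an SD of 2.64, although its summed reads were 5, 68 and 52 with emetine and 5, 62 and 74 without. The FBXO28 peak at chr1:224345811-224345846 (hg19) gave 66.5% of its reads and had a log2 change of 0.37, while a peak at chr1:224349166-224349191 (hg19) with 0 emetine reads and 2, 17 and 2 control reads had one of -4.08. CMTM4, a membrane protein that stabilises PD-L1, had an SD of 2.66.

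Which peak of a 3' UTR held the most reads also varied. The leading peak held a median of 20.7% of a member's reads, summed over all its listed peaks, from 3.77% in CCND2 to 77.6% in KLHDC5. The same peak led in both treatments in 119 of 538 members (22.1%) and in 42 of the 104 with at least 300 reads (40.4%). Between 2 libraries, the profile of reads over the peaks of a 3' UTR had a median correlation between -0.17 (control libraries 2 and 3) and 0.28 (emetine library 1 and control library 1). The pair with the highest value thus joined the 2 shallow libraries of different treatments, and the pair with the lowest came from 1 treatment. In the libraries of 1 treatment the antibody differs by design, and its part in these profiles was not tested.

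The share of 3' UTR reads that fell in members overlapped between the treatments. Of all reads in 3' UTR peaks, the members held 56.0%, 47.7% and 49.2% with emetine, against 55.5%, 44.7% and 50.4% without. The means were 51% ± 4.47 and 50.2% ± 5.40 (SD, n = 3 each), with a p of 0.9 in a two-sided exact permutation test, whose smallest possible p is 0.1. Pairing by antibody was not used in this test or in that of the 3′ side below, as the libraries could not be assigned. The shallow libraries had the highest shares in both treatments. Reads were also split at the middle of each member's peaks, counted from 5′ to 3′. The 3′ side held 49.7% ± 2.20 of a member's reads with emetine and 50.2% ± 0.864 without (SD, n = 3 each; exact permutation p = 0.9, adjusted 0.9 over the 2 shares).

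Member genes had more RNA reads than other genes with 3' UTR peaks. Their transcripts had a median of 590.5 RNA reads with emetine and 232 without, against 290 and 112 for the other 3' UTRs. As 1 RNA read counted as 2.51 normalised reads with emetine and 6.37 without, raw RNA reads do not compare the treatments. The median log2 RNA ratio was -0.01 with an SD of 0.30 across members, from 1 RNA library per treatment and thus with no replicate check. The 5 members above 1 were TXNIP, MID1IP1 (1.29), JUN, HOXA3 (1.23) and TRIB1 (1.12). Below -1 was PABPN1, the nuclear poly(A) binding protein, at -1.41 on 35 and 37 reads. Across members the summed CLIP change and the RNA ratio had a Spearman correlation of 0.15.

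Members were also read by gene lists, and 0 members of any list passed the limma test without a block. Of 20 genes listed as let-7 targets, 6 were members, 2 above 0 and 4 below, with a median log2 change of -0.46 (all 3' UTRs -0.17). They included HMGA2, a chromatin protein of embryonic growth, with 23, 39 and 44 reads with emetine against 9, 32 and 30, the treatments not overlapping, while IGF2BP1 and NRAS lay below 0. CCND1, cyclin D1, had 30 peaks and a change of -0.30 (standard error 0.36). Of 23 genes listed as miR-17 family targets, 11 were members, 7 above 0 and 4 below, with a median of 0.45; TXNIP is one. ANKRD52 held 93, 320 and 278 reads against 129, 234 and 259 and CCND2 90, 250 and 177 against 66, 351 and 267, both with overlapping treatments.

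Of 26 genes of the microRNA machinery and mRNA decay, 10 were members, 4 above 0 and 6 below. They included TNRC6A, TNRC6B and TNRC6C (the GW182 proteins), DICER1, EIF2C1 and EIF2C2 (Argonautes 1 and 2), CNOT6, CNOT6L and DDX6. TNRC6B, with 27 peaks over 12049 nt, held 18, 153 and 33 reads with emetine and 15, 143 and 96 without. The EIF2C2 transcript, which encodes Ago2 itself, had 6 peaks with 8, 26 and 14 reads against 0, 16 and 39.

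Of 23 immediate early and short-lived genes, 7 were members, 6 above 0 and 1 below, with a median log2 change of 0.62 and a median log2 RNA ratio of 0.90. IER2 was the one below, with 8, 14 and 1 reads against 4, 93 and 12, and all 6 of its peaks were below 0. KLF10, a zinc finger factor induced by TGF-beta, held 1, 16 and 42 against 3, 19 and 10. Of 178 zinc finger genes listed, 130 had a 3' UTR peak and 20 were members, 12 above 0 and 8 below, with a median of 0.46. ZNF512B, with 30 peaks, held 85, 14 and 97 against 100, 117 and 111, so emetine library 2 stood apart from the other emetine libraries; without it the log2 change went from -1.01 to 0.13. ZBTB7A, with 24 peaks, held 31, 157 and 104 against 47, 141 and 147.

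Of 22 cell cycle genes 10 were members (4 above 0, 6 below), and of 25 chromatin genes 8 (5 above, 3 below). CDK6, the partner of D cyclins and chosen after its values were seen, held 16, 59 and 63 reads against 27, 166 and 111 without overlap. Among 17 RNA-binding proteins 10 genes with 11 3' UTRs were members, 6 above 0 and 5 below. The 2 CELF1 entries lay on adjoining stretches, each with 22 peaks. The one with more reads held 46, 148 and 19 reads against 60, 51 and 97. E3 ligases had 5 members of 20, all above 0 with a median of 0.13, but between 0 and 5 of them were above 0 with 1 library left out, and 4 with scaling by total reads. KLHL15 and MDM2 had log2 changes of 0.11 and 0.32, with standard errors of 0.52 and 0.83, and these ran from -0.43 to 0.56 and from -0.40 to 1.11 with a library left out. Of 20 receptors and signalling genes of the TGF-beta and Wnt pathways 2 were members, ACVR2B and the Frizzled receptor FZD3, both below 0 and both without overlap. FZD3 held 0, 4 and 17 reads against 6, 30 and 27, and its treatments were separated by less than the value of 1 read. Its widest gap between peaks, 7988 nt, was the widest of any member.

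With a library left out, the median log2 change of 6 of the 10 lists changed sign. It stayed below 0 for the let-7 targets (-0.68 to -0.28) and the TGF-beta and Wnt genes (-2.27 to -1.06), and above 0 for the miR-17 targets (0.13 to 0.79) and the immediate early genes (0.22 to 1.11). For the zinc finger genes it ran from -0.45 to 0.78, and for the E3 ligases from -0.43 to 0.63. With scaling by total reads the RNA-binding proteins turned, from 0.05 to -0.02. In the 4 deeper libraries they turned as well (-0.06), as did the chromatin genes (-0.30), the zinc finger genes (-0.15) and the E3 ligases (-0.08). With limma-voom the chromatin genes turned, to -0.005.

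The members were last split by seed matches. The 195 members with a miR-17 match had a median log2 change of 0.03 (99 above 0, 96 below), and the 232 without one -0.04. With 2 or more such matches the median was 0.32 in 76 members, 43 above 0 and 33 below. This was the highest such median of the 12 families; the lowest were -0.28 for miR-101 (28 members, 12 above 0 and 16 below) and -0.23 for miR-27 (30 members, 9 above and 21 below). For let-7 the 87 members with a match had a median of -0.14 (40 above, 47 below) and the 340 without 0.02. The 212 members with a miR-15/16 match stood at -0.07 and the 215 without at 0.04. Members with a match were longer, with a median of 3391 nt for miR-17 against 2612.5 nt without, and no test was made of these medians. How the median changes by seed match move with a library left out was not tested. The median log2 change of all members ran from -0.45 to 0.25 in that way.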

How the data were processed

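The authors deposited, per the file headers, for each peak its position, strand, region, gene, RefSeq transcript, a log average and a log ratio of emetine to no emetine. Both are natural log (ln) values as deposited by the authors, relative to RNA of the transcript; the base was tested on the values. With 0.5 times the ratio added or subtracted, the average gives 1 value per treatment: ln(1 + reads × factor) averaged over 3 CLIP libraries, less ln(1 + RNA reads × factor). Whole reads and factors satisfying this were found for 22496 of 22506 peaks (99.956%, tolerance 2e-13); values shifted as a check matched at 38 of 2604 (emetine) and 24 of 2604 peaks (control). Hence limma was fitted to these reads, as planned for the case that they could be recovered. Without them the deposited ratio would only have been described. The submitters' processing notes name hg19, Bowtie 0.12.8, TopHat and DESeq; how peaks were called and whether starts count from 0 is not given in the sources used here.

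limma 3.58.1 (R 4.3.3, trend, constant 1, treatment only, Benjamini-Hochberg at 0.05) was fitted over all peaks and all 3' UTR sums, and tested on simulated data. It assigns no antibody; a block by antibody was fitted under all 6 possible pairings. Ratios of totals scale reads by the summed inverse factors, with exact binomial 95% intervals and a floor of 3 reads per treatment. Analyses used Python 3.11.15, scipy 1.17.1, numpy 2.4.6 and matplotlib 3.10.9; sequences came from GENCODE release 29 and RefSeq.

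Members, lists and tests were chosen with earlier results of these data known. Named were the 12 3' UTRs with most peaks; with at least 100 reads, the 6 largest changes each way and the 3 extremes of spread and gap; the peak with most reads and 4 peaks each way with the smallest p; and up to 2 per list.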

Additional observations from a re-analysis of the deposited data

How the results depend on the processing

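The labels pair libraries by antibody, and the recovered libraries carry no antibody label, so the replicate block was fitted under each of the 6 possible pairings: 0 member peaks passed in each, and member 3' UTRs that passed numbered 2 and 3 in the pairings of emetine library 1 with control library 1 and 0 in the other 4 (chosen after seeing the data). Member peaks with an adjusted p under 0.05 numbered 0 in limma under every setting run (added constants of 0.5 and 5, scaling by total reads, reads in at least 3 libraries, the 4 deeper libraries, limma-voom, each library left out, the block, 5 or 8 peaks as the minimum). Of member 3' UTRs, 1 passed with limma-voom (SLC36A1) and between 0 and 1 with a library left out (TXNIP without emetine library 1); 0 passed otherwise without the block. The share of all 3' UTRs that passed with limma-voom or with a library left out is not given here. These passes therefore cannot be called particular to the members. The share of variance between 3' UTRs was 0.116 with peaks with reads in at least 3 libraries, 0.124 with peaks of at least 20 reads, 0.0981 and 0.218 with separate peaks of at least 20 and 40 reads, and between 0.0545 and 0.0914 with a library left out. The difference in the members' share of reads lay between -2.00 and 3.39 percentage points with a library left out, against 0.75. That in the share of the 3′ side was 0.25 points in the 4 deeper libraries and between -1.42 and 0.68 with a library left out, against -0.56. In 4 of 969 comparisons of a named 3' UTR a change larger than its standard error turned: CNOT6L was 0.44 in the 4 deeper libraries and between -2.89 and 0.43 with a library left out, CLIP4 between -0.20 and 3.39, and ZNF512B between -1.94 and 0.13; 40 smaller changes turned as well. The cause was not tested. Libraries held 39591 to 117571 reads in listed peaks; the parts of depth and antibody in the spread were not told apart. diffSplice, the alternatives on separate peaks, those without TXNIP and ZNF367 and the deeper libraries for the shares were chosen after seeing the data.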
